A study of Caenorhabditis elegans with 4 samples.

Results

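The endoplasmic reticulum (ER) stress and folding genes described here are 10 named genes of Caenorhabditis elegans, followed in larvae with and without a mutation in dve-1. They are the stress sensors ire-1, pek-1 and atf-6, the transcription factor gene xbp-1, and the folding genes hsp-3, hsp-4, crt-1, cnx-1, enpl-1 and pdi-2. They are a list of names with no threshold on measured values, drawn up with earlier results of these data known, and all 10 were found among the 41614 genes to which deposited transcripts could be assigned. Each had a mean above 1 FPKM (fragments per kilobase of transcript, scaled to sequencing depth), the minimum for the 15202 genes tested, so none was lost to the filter on low values.

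Total RNA of whole animals at the first larval stage (L1) was sequenced from 2 wild-type libraries and 2 libraries of dve-1(uf171) mutants, each from about 1200 synchronized larvae. Both genotypes were grown at 25 degrees Celsius on plates seeded with E. coli OP50, and no other allele or agent is given for either. The sources used here do not say what the uf171 change does to the gene or whether the replicates were separate cultures. The p-values set the difference between genotypes against the spread of a gene's replicates together with that of genes at like levels. That spread may be technical.

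Proteins that enter the secretory pathway fold in the ER with the help of chaperones that bind exposed hydrophobic stretches or sugar chains and of enzymes that form disulfide bonds. When unfolded proteins build up, membrane sensors start the ER unfolded protein response: IRE-1 removes an unconventional intron from the xbp-1 mRNA so that the active transcription factor is made, PEK-1 slows translation by phosphorylating an initiation factor, and ATF-6 is a transcription factor held in the ER membrane. In this animal hsp-4 is the commonly used reporter of that response. DVE-1, a homeodomain protein, is known for a different compartment's response, that of mitochondria.

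For dve-1 itself the wild-type pair read 15.1 and 19.5 FPKM and the mutant pair 23.4 and 25.5 FPKM. Both mutant values were the higher ones, and the RNA level does not check the genotype, since a mutant allele need not lower it. Summed FPKM ranged from 2.05e+06 to 2.39e+06 per library. Counts of reads are not part of the values. In the wild-type pair, 365 of 1714 low transcripts (under 0.3 FPKM) shared a ratio of 1.079 (tolerance 0.0002). Whole reads at different depths can give such a ratio. Between other pairs of libraries, the mutant pair included, at most 8 transcripts shared a ratio. Depths of the mutant libraries could therefore not be set beside the others. Why only the wild-type pair had so many transcripts at a shared ratio was not tested. In whole-animal RNA, fewer cells of a type and less RNA per cell cannot be told apart.

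Across the 10 genes the levels covered more than 100-fold, with crt-1 at the top and the 3 sensors at the bottom by mean level. The FPKM scale is per length, so levels of different genes can be compared on it. The order of mean level over the 4 libraries was crt-1 (1430 FPKM), pdi-2 (366), hsp-3 (304), enpl-1 (240.02), xbp-1 (96.5), cnx-1 (94.2), hsp-4 (74.3), pek-1 (24.5), ire-1 (24.099) and atf-6 (13.8). Within wild type the libraries separated crt-1, pdi-2, hsp-3 and enpl-1 from each other and from the rest. Further down, xbp-1 and cnx-1 overlapped each other, hsp-4 lay apart below them, and pek-1 overlapped both of the other sensors. In the mutant, pdi-2 overlapped hsp-3, hsp-4 overlapped both xbp-1 and cnx-1, and pek-1 overlapped ire-1. The calreticulin gene crt-1 exceeded 98.9% of tested genes in mean level, and the lowest member, atf-6, exceeded 50.9%.

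**Figure D1:**
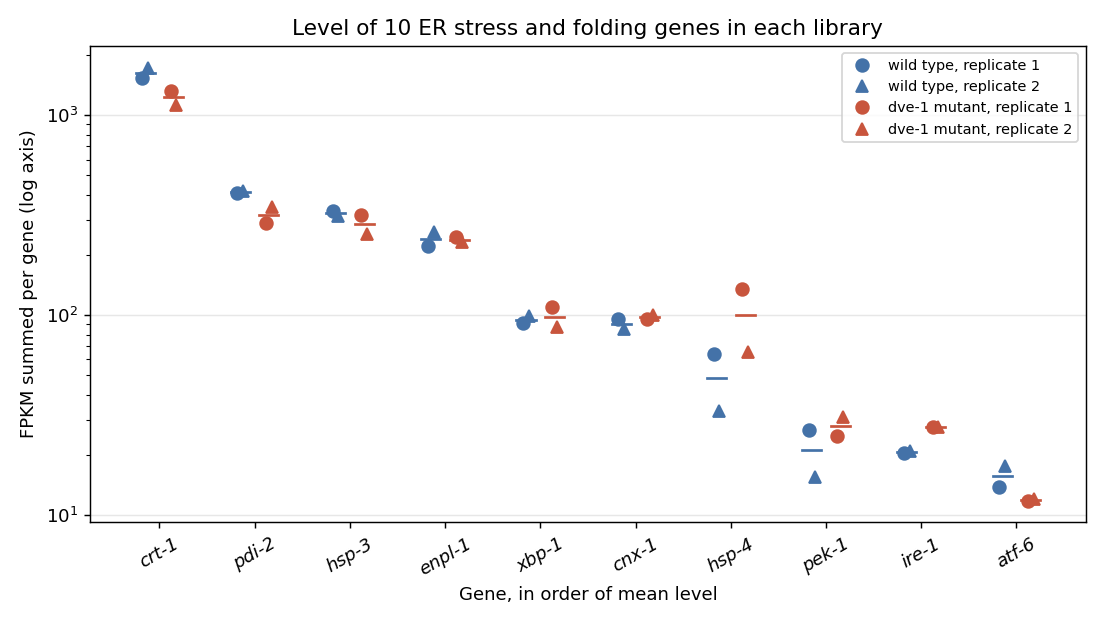
FPKM summed per gene (log axis) for the 10 genes in each of the 4 libraries, ordered by mean level; circles and triangles are replicates 1 and 2, and short bars are genotype means (n = 2). The highest gene, crt-1, lies between 1131 and 1733 FPKM and the lowest, atf-6, between 11.8 and 17.5 FPKM, and hsp-4 has the widest spread.

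None of the 10 genes passed the test between genotypes. The test was limma on log2(FPKM + 1), fitted over all 15202 tested genes with p-values adjusted by Benjamini-Hochberg and called under 0.05. It called 0 of the 10 members, where it called 252 of all tested genes (1.66%), 46 higher (0.303%) and 206 lower (1.36%) in the mutant. Among the 12206 protein-coding genes above 0 in every library, a class that holds all 10 members and was set after the data were seen, limma called 52 (0.426%), 1 higher (0.00819%) and 51 lower (0.418%). At an unadjusted limma p under 0.05 there were 2 members, ire-1 and pdi-2, against 11.9% of all tested genes. In unscaled FPKM, mutant values lay entirely above the wild-type values for 2 members, hsp-4 and ire-1, and entirely below for 3, crt-1, pdi-2 and atf-6. Among all tested genes the groups did not overlap in 44.0%, with 28.1% above and 15.9% below, so the 5 of 10 members without overlap were near the background. Under median-ratio scaling hsp-4 overlapped and hsp-3 lay entirely below. The shares over all tested genes were not counted on that scale. The median log2 fold change of the members was 0.02, mutant over wild type, against 0.09 over all tested genes, and it stood at -0.085 under median-ratio scaling.

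**Figure D2:**
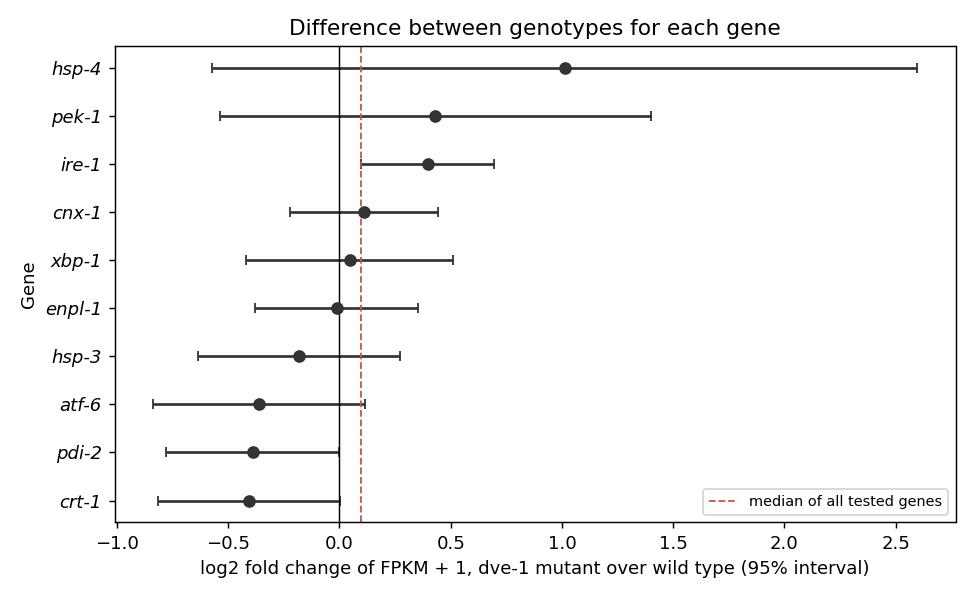
Log2 fold change of FPKM + 1, dve-1 mutant over wild type, for each of the 10 genes, with 95% intervals from the limma fit (2 libraries per genotype); the dashed line marks the median of all tested genes, 0.09. The estimates run from -0.41 for crt-1 to 1.01 for hsp-4, and the interval of hsp-4 is the widest.

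The BiP chaperones, relatives of the cytosolic 70-kilodalton heat shock proteins that bind unfolded chains in the ER lumen, are encoded by hsp-3 and hsp-4. The inducible copy, hsp-4 (F43E2.8, chromosome II, 7350119 to 7352518, minus strand, WBcel235), had 63.9 and 33.2 FPKM in the wild-type pair and 135 and 65.6 FPKM in the mutant pair. Both mutant libraries were higher than both wild-type libraries, but the lower mutant value lay only just above the higher wild-type value. Median-ratio scaling divides these values by 1.023 and 0.962, after which they change order and the genotypes overlap. The genotype means were 48.6 ± 21.7 and 100.09 ± 48.8 FPKM (SD, n = 2), a ratio of 2.06, while the replicates themselves differed 1.93-fold in wild type and 2.05-fold in the mutant. The log2 fold change of 1.01 (SE 0.53, 95% interval -0.57 to 2.60) did not pass (limma adjusted p = 0.567). It ranged from 0.50 to 1.53 with 1 library left out. It was lowest without the first mutant or the second wild-type library (0.50 and 0.55) and highest without the second mutant or the first wild-type library (1.53 and 1.47).

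The other BiP gene, hsp-3 (C15H9.6, chromosome X, 6089033 to 6091785, minus strand), read 334 and 312 FPKM in wild-type larvae against 318 and 254 FPKM in mutant larvae. The genotypes overlapped, and the second mutant library was the lowest of the 4. Once scaled by median ratio, both mutant values of hsp-3 lay below both wild-type values. The log2 fold change was -0.18 (SE 0.15, 95% interval -0.64 to 0.27, limma adjusted p = 0.627), and it moved to -0.021 without the second mutant library and to -0.34 without the first. Of the BiP pool, a quantity taken up after both genes' values were seen, hsp-4 held 16.1% and 9.63% of the summed FPKM of both genes in wild-type larvae and 29.8% and 20.5% in mutant larvae. These shares restate the values of hsp-4 and hsp-3 and add no separate comparison. The sum of both genes was 371 ± 37.3 FPKM in wild type and 386 ± 93.8 FPKM in the mutant (SD, n = 2). The 2 genes encode closely similar proteins, and the sources used here do not say how reads that align to both were treated.

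Calreticulin, the calcium-binding lectin chaperone of the lumen, is encoded by crt-1 (Y38A10A.5, chromosome V, 6098992 to 6100542, minus strand). It had 1528 and 1733 FPKM in the wild-type pair and 1329 and 1131 FPKM in the mutant pair. The mutant values were the lower ones, without overlap. The means were 1630 ± 145 and 1230.0 ± 140.1 FPKM (SD, n = 2), for a log2 fold change of -0.41 (SE 0.14, 95% interval -0.82 to 0.00070, limma adjusted p = 0.422). Of the gene's 1401 exonic bases, 92 overlap an exon of smut-1 on the opposite strand, and the sources used here do not say whether reads were counted by strand. This 1 gene made up 54.4% and 57.9% of the members' summed FPKM in wild-type larvae and 51.4% and 49.5% in mutant larvae. The summed FPKM of all 10 members, 2807 and 2993 in wild-type larvae and 2585 and 2287 in mutant larvae, therefore follow it closely. Without crt-1 the members summed to 1279 and 1261 FPKM in wild-type larvae and 1256 and 1156 FPKM in mutant larvae. The comparison of the members' sum depended on the total it was set against. Of all summed FPKM the 10 members held 0.117% and 0.127% in wild-type larvae and 0.115% and 0.111% in mutant larvae, without overlap. Of the FPKM of protein-coding genes they held 0.185% and 0.196% against 0.191% and 0.177%, with overlap.

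The membrane-bound lectin chaperone calnexin, encoded by cnx-1 (ZK632.6, chromosome III, 9814364 to 9817137, minus strand), read 95.9 and 85.2 FPKM in wild-type larvae against 95.8 and 99.8 FPKM in mutant larvae. The first library of each genotype had almost the same value, so the genotypes overlapped. Its log2 fold change was 0.11 (SE 0.11, 95% interval -0.22 to 0.45, limma adjusted p = 0.672). Leaving out the first or the second wild-type library gave 0.197 or 0.027, and median-ratio scaling gave 0.0099. The level of crt-1 was 15.9 and 20.3 times that of cnx-1 in wild type and 13.9 and 11.3 times in the mutant. These ratios restate the values of both genes, of which only crt-1 had no overlap between genotypes, as did 44.0% of all tested genes.

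Endoplasmin, the ER member of the family of 90-kilodalton heat shock proteins, is encoded by enpl-1 (T05E11.3, chromosome IV, 11119298 to 11123155, plus strand). It had 223 and 260 FPKM in the wild-type pair and 246 and 232 FPKM in the mutant pair. The mutant values lay inside the wild-type range. The log2 fold change was -0.01 (SE 0.12, 95% interval -0.38 to 0.35, limma adjusted p = 0.984), the smallest among the 10 genes. The interval leaves room for a difference of either sign.

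The protein disulfide isomerase gene pdi-2 (C07A12.4, chromosome X, 4524155 to 4526536, plus strand) encodes an enzyme that forms and rearranges disulfide bonds and also serves as the second subunit of the collagen prolyl hydroxylases that modify cuticle collagens. It read 411 and 419 FPKM in wild-type larvae against 289 and 347 FPKM in mutant larvae. The wild-type libraries were nearly equal and both mutant libraries were lower. The means were 415 ± 5.70 and 318 ± 41.1 FPKM (SD, n = 2), for a log2 fold change of -0.39 (SE 0.13, 95% interval -0.78 to -0.0015). This gave an unadjusted limma p of 0.0495 and an adjusted p of 0.419. Without the first mutant library the fold change was -0.26, and without the second -0.52. Leaving out the first or the second wild-type library gave -0.40 or -0.38.

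Among the sensors, ire-1 (C41C4.4, chromosome II, 8112243 to 8124910, minus strand), which encodes the kinase and endoribonuclease that splices xbp-1, read 20.4 and 20.96 FPKM in wild type, against 27.5 FPKM in either mutant library. The gap between genotypes was much wider than the gap between replicates. The means were 20.7 ± 0.407 and 27.5 ± 0.0176 FPKM (SD, n = 2), for a log2 fold change of 0.40 (SE 0.10, 95% interval 0.099 to 0.70). It had the smallest p of the 10 genes, unadjusted 0.0225 and adjusted 0.331 by limma, and ranked 1034th by p among the 15202 tested genes. With 1 library left out the fold change ranged from 0.38 to 0.42, and under median-ratio scaling it was 0.298. For the transcript NM_001267207 alone, only slightly the more abundant of its 2 by mean, it was 0.615 (SE 0.283, limma adjusted p = 0.558). In the second wild-type library that transcript was the lesser one, at 7.16 against 13.8 FPKM.

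The ire-1 total is a sum over 2 RefSeq transcripts whose separate values were less even. NM_001267206 held 41.8% and 65.8% of the gene's FPKM in wild-type larvae and 44.5% and 48.6% in mutant larvae. The wild-type libraries thus stood on either side of the mutant libraries, and the near-equal totals came from unequal parts. The 2 transcripts of cnx-1 divided more evenly between libraries, with NM_001306672 at 61.8% to 65.2% of the gene in the 4 libraries. For enpl-1, NM_001268607 held 46.6% and 50.6% in wild-type larvae and 39.7% and 51.6% in mutant larvae. The other 7 members had 1 transcript each in the values.

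The gene pek-1 (F46C3.1, chromosome X, 11410176 to 11414887, minus strand), which encodes the kinase that phosphorylates the initiation factor, had 26.7 and 15.4 FPKM in the wild-type pair and 24.8 and 31.02 FPKM in the mutant pair. The low value of the second wild-type library set the difference between means, and the genotypes overlapped. The log2 fold change was 0.43 (SE 0.33, 95% interval -0.54 to 1.40, limma adjusted p = 0.627). Without the first wild-type library it was 0.81, and without the second 0.054.

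The gene atf-6 (F45E6.2, chromosome X, 12480948 to 12484904, plus strand) read 13.9 and 17.5 FPKM in wild-type larvae against 11.8 and 12.01 FPKM in mutant larvae. Both mutant libraries were below both wild-type libraries, opposite in sign to ire-1. The log2 fold change was -0.36 (SE 0.16, 95% interval -0.84 to 0.12, limma adjusted p = 0.511). It was -0.52 without the first wild-type library and -0.20 without the second. Added together, the sensor transcripts came to 60.96 and 53.9 FPKM in wild-type larvae against 64.2 and 70.6 FPKM in mutant larvae.

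The transcription factor gene xbp-1 (R74.3, chromosome III, 4193809 to 4195358, plus strand) had 90.8 and 98.5 FPKM in the wild-type pair and 109 and 87.4 FPKM in the mutant pair. The mutant libraries were the highest and the lowest of the 4. The log2 fold change was 0.05 (SE 0.16, 95% interval -0.42 to 0.51, limma adjusted p = 0.929). The values hold 1 transcript for this gene, so its form spliced by IRE-1 was not measured apart from the unspliced one.

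**Figure D3:**
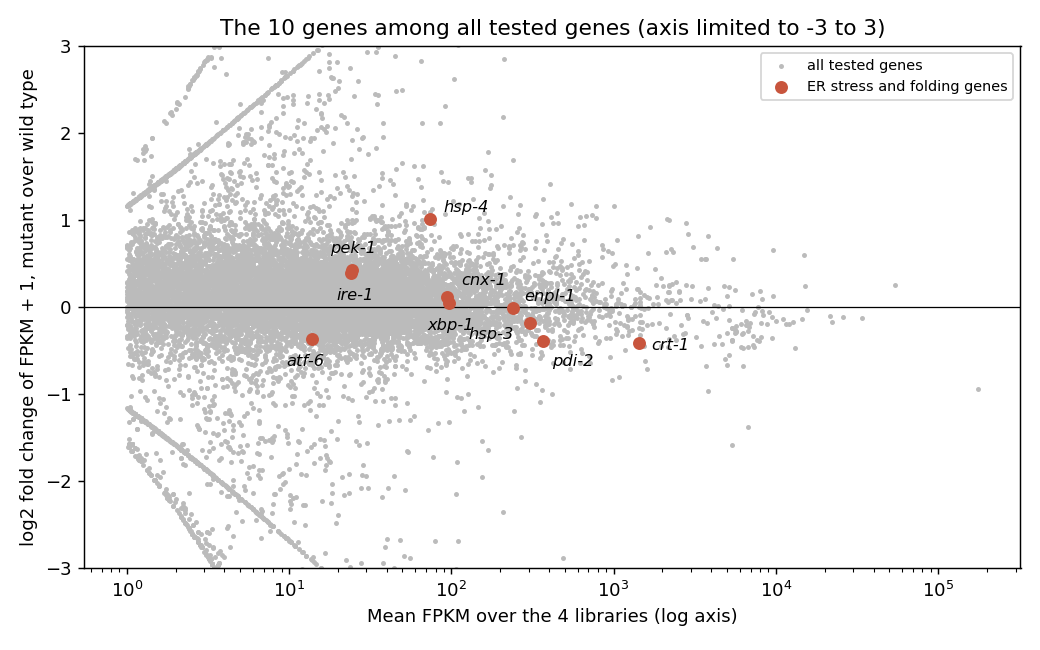
Log2 fold change of FPKM + 1, mutant over wild type, against mean FPKM (log axis) for the tested genes (grey) and the 10 ER genes (red), with the vertical axis limited to -3 to 3 so that larger changes fall outside. All 10 lie within the cloud, with hsp-4 highest at 1.01 and crt-1 lowest at -0.41.

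Ranked among all tested genes, hsp-4 had a higher fold change than 92.9% of them and crt-1 a higher one than 13.04%. The folding genes other than hsp-4 had log2 fold changes between -0.41 and 0.11. Exons of ire-1, cnx-1, enpl-1 and pdi-2 overlap another gene by 4 to 49 bases, and those of hsp-3, hsp-4, xbp-1, pek-1 and atf-6 overlap none.

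The rest of the ER machinery was followed in lists of 79 genes by function, of which 68 could be matched and 58 were tested. Again 0 passed by limma, against 1.66% of all tested genes, and 7 (12.1%) had an unadjusted p under 0.05, near the 11.9% of all tested genes. Members whose genotypes did not overlap numbered 9 above and 18 below in the mutant. Against the background of 28.1% and 15.9% the balance of directions was the other way round, a difference that was not tested, and the median log2 fold change was -0.05. These counts and shares are on unscaled FPKM, where the median of all tested genes was 0.09. Under median-ratio scaling the medians were -0.15 for these lists and 0.0058 for all tested genes, and the shares were not counted.

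Genes of ER-associated degradation, which carries misfolded proteins back to the cytosol for destruction by the proteasome, mostly had higher values in the mutant, with log2 fold changes above 0 for 8 of 10 tested, against 9233 of all 15202 tested genes. By limma 0 passed, 6 had both mutant libraries over both wild-type libraries and 0 had both below, where 28.1% and 15.9% of all tested genes did. Under median-ratio scaling ufd-1 overlapped and the conjugating enzyme gene ubc-6 lay below without overlap. The median log2 fold change was 0.24 against 0.09 for all tested genes (0.16 to 0.31 with 1 library left out), and 0.13 against 0.0058 under median-ratio scaling. The gene cup-2, which encodes a derlin, a membrane protein of the export machinery, read 52.8 and 44.1 FPKM in wild-type larvae against 87.9 and 74.1 FPKM in mutant larvae, a log2 fold change of 0.73 (SE 0.16; adjusted p = 0.287 by limma). The ubiquitin ligase gene hrdl-1 was listed at 29.2 and 30.8 FPKM and at 45.04 and 44.9 FPKM, with a log2 fold change of 0.57 (SE 0.10; adjusted p = 0.185 by limma). Values of the ligase gene marc-6 ran from 17.0 to 20.5 FPKM in wild type and from 25.4 to 27.2 FPKM in the mutant. The partners sel-1 and sel-11, which encode the adaptor and the ligase of the main degradation complex, had log2 fold changes of 0.35 and 0.33 (limma adjusted p = 0.456 and 0.501), and ufd-1, a cofactor of the extracting ATPase, had one of 0.14. These 6 were picked out with their values in view. The most abundant members, named by rule, were the conjugating enzyme gene ubc-7 and the ATPase gene cdc-48.1. The former had 151 and 121 FPKM in the wild-type pair and 134 and 141 FPKM in the mutant pair, the latter 83.5 and 87.4 FPKM and 64.9 and 91.1 FPKM. Both overlapped between genotypes. The copies npl-4.1 and npl-4.2, named after their values were seen, were listed at 0 in every library but the second mutant one, where npl-4.2 was at 0.924 FPKM.

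Genes of translocation into the ER and of N-glycosylation mostly had lower values in the mutant, with log2 fold changes below 0 for 13 of 14 tested, against 5969 of all 15202 tested genes. By limma 0 passed, 9 had both mutant libraries under both wild-type libraries and 0 had both above, where 15.9% and 28.1% of all tested genes did. Under median-ratio scaling sec-61.A, spcs-1 and ostb-1 also lay below without overlap. The median log2 fold change was -0.17 against 0.09 for all tested genes (-0.29 to -0.11 with 1 library left out), and -0.273 against 0.0058 under median-ratio scaling. The translocon gene sec-61.B, most abundant of the list, had 1104 and 1187 FPKM in the wild-type pair and 919 and 922 FPKM in the mutant pair, a log2 fold change of -0.31 (SE 0.09; adjusted p = 0.367 by limma). The translocon-associated protein gene trap-3, next in level, was listed at 624 and 693 FPKM and at 522 and 575 FPKM (limma adjusted p = 0.501). Its partners trap-2 and trap-1, named after their values were seen, had log2 fold changes of -0.64 and -0.45 (limma adjusted p = 0.376 and 0.42). The single member above 0 was stt-3, the catalytic subunit gene of the oligosaccharyl transferase, with a log2 fold change of 0.04.

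**Figure D4:**
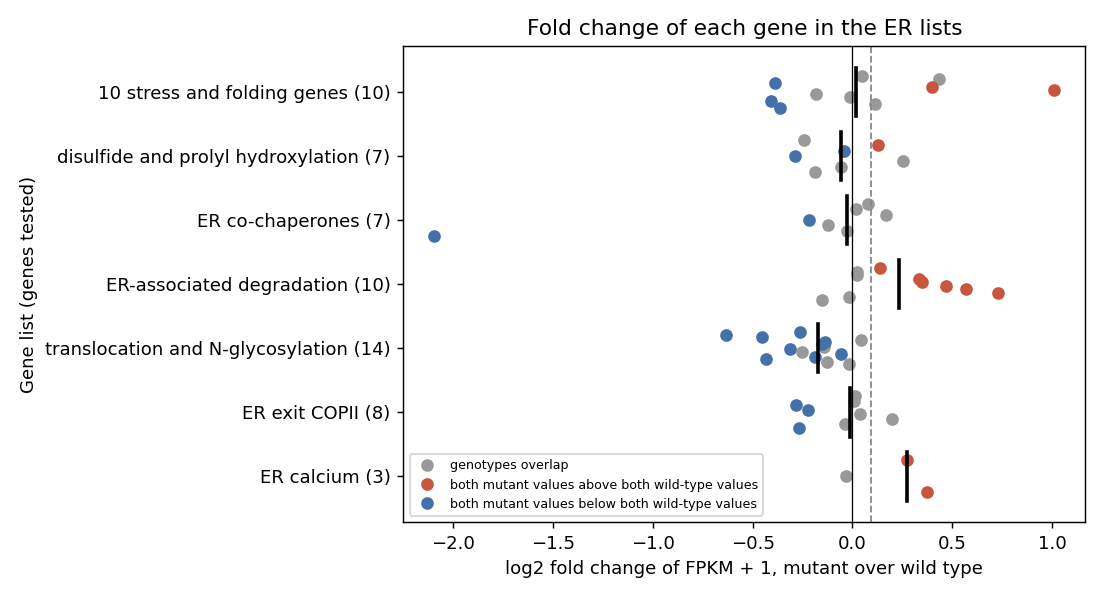
Log2 fold change of FPKM + 1, mutant over wild type, for each tested gene of the ER lists; black bars are list medians, the dashed line is the median of all tested genes (0.09), and colour shows whether both mutant values were above or below both wild-type values. In unscaled FPKM the degradation list has 6 of 10 genes above and the translocation list 9 of 14 below. Of all tested genes 28.1% lay above and 15.9% below.

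Disulfide and prolyl hydroxylation genes showed small differences in both directions, with 0 of 7 passing and a median log2 fold change of -0.06. The most abundant were pdi-3 and pdi-6, both protein disulfide isomerase genes. Levels of pdi-3 were 463 and 477 FPKM in the wild-type pair and 461 and 453 FPKM in the mutant pair (adjusted p = 0.859 by limma). Those of pdi-6 were 240.04 and 249 FPKM and 278 and 256 FPKM (adjusted p = 0.627). The collagen hydroxylase gene dpy-18, whose protein pairs with that of pdi-2, was at 30.6 and 30.4 FPKM and at 30.9 and 27.7 FPKM. It is named here for that pairing, after its values were seen. In unscaled FPKM its genotypes overlapped where those of pdi-2 did not, and 44.0% of all tested genes had no overlap. Under median-ratio scaling both dpy-18 and pdi-2 lay below without overlap. The difference between those genes' fold changes was not tested.

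Among ER co-chaperones 0 of 7 passed (median log2 fold change -0.03). The J-domain protein gene dnj-20 read 587 and 651 FPKM in wild-type larvae against 531 and 609 FPKM in mutant larvae. The gene dnj-27, which encodes a J-domain protein with disulfide reductase domains, had 45.2 and 45.0 FPKM in the wild-type pair and 38.2 and 39.0 FPKM in the mutant pair (limma adjusted p = 0.505). Named after their values were seen, T14G8.3 read 10.97 and 14.9 FPKM in wild-type larvae against 9.42 and 0 FPKM in mutant larvae, and dnj-29 was listed at 0 in all 4 libraries. An exact 0 may be a failed estimate. Of 8 genes of the vesicle coat that leaves the ER, 0 passed (median -0.01), and the most abundant were the GTPase gene sar-1 and the coat gene sec-23. The former had 150.1 and 150.9 FPKM in the wild-type pair and 140.1 and 153.6 FPKM in the mutant pair, and the latter 67.4 and 74.03 FPKM and 58.5 and 62.4 FPKM. Of 3 ER calcium genes 0 passed (median log2 fold change 0.27). That median ran from 0.146 without the first wild-type library to 0.401 without the second, and was 0.078 for the most abundant transcript of each gene, against 0.089 over all transcripts tested. The calcium pump gene sca-1 stood at 270.3 and 293 FPKM and at 240 and 316 FPKM, and the release channel gene unc-68 at 14.9 and 18.01 FPKM and at 19.7 and 20.3 FPKM. The list of translation kinases and their targets around pek-1 had 4 genes, and none was matched through a coding transcript, so it gives no value.

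The sum of the abu genes, named for their activation when the ER response is blocked, differed far more between replicates than between genotypes. It was 193 and 12.5 FPKM in wild-type larvae against 32.1 and 109 FPKM in mutant larvae. A list of 10 cuticle and moulting genes had sums of 650 and 31.5 FPKM in wild-type larvae and 52.2 and 308 FPKM in mutant larvae, the same order of libraries. Of 9 abu genes tested 0 passed, with a median log2 fold change of -0.37 that ran from -1.97 to 1.99 with 1 library left out. The most abundant was abu-14, with 55.4 and 2.72 FPKM in the wild-type pair and 13.9 and 36.7 FPKM in the mutant pair. Next came abu-8, with 58.8 and 3.30 FPKM and 4.90 and 35.3 FPKM.

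None of the 10 ER genes had its 4 libraries in that same order, though pek-1 and cnx-1 were, within each genotype, higher in the library with more cuticle transcripts. Where the cuticle sum differed more than 20-fold between the wild-type libraries, pdi-2 differed 1.02-fold and crt-1 1.13-fold. Of the members, hsp-4 differed most, by 1.93-fold, and was higher in the wild-type library with more cuticle transcripts but also in the mutant library with fewer. The part of the cuticle difference in any member's value was not tested.

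**Figure D5:**
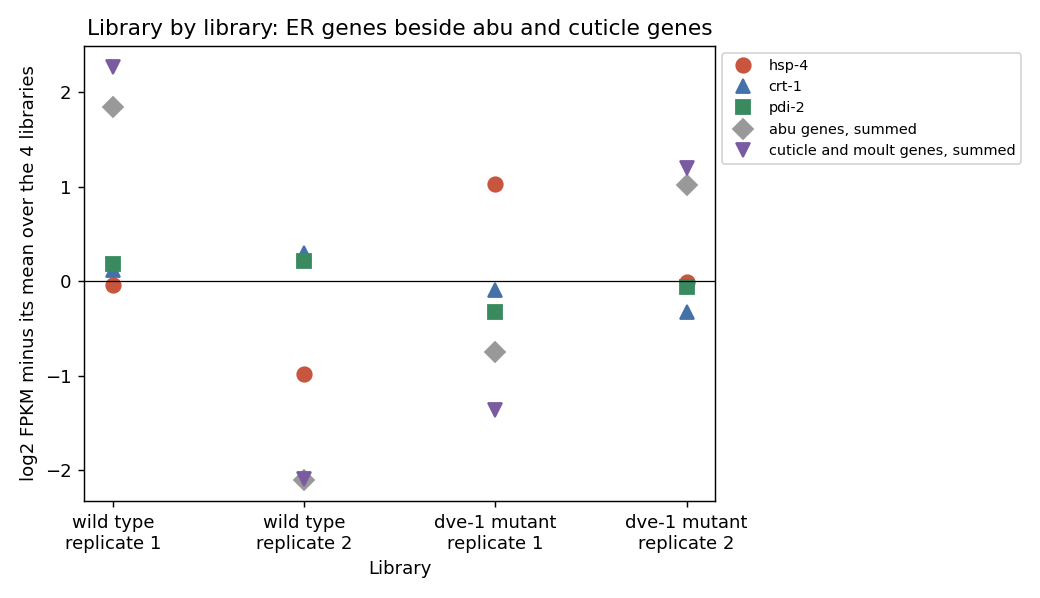
Log2 FPKM minus its mean over the 4 libraries, by library, for hsp-4, crt-1, pdi-2, the summed abu genes and the summed cuticle and moulting genes. The abu and cuticle sums are high in wild-type replicate 1 and mutant replicate 2, whereas hsp-4 is highest in mutant replicate 1 (135 FPKM) and lowest in wild-type replicate 2 (33.2 FPKM).

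Levels of tissue markers are given beside these whole-animal values, and by limma 0 of the markers tested in each of these tissues passed. The 7 intestinal markers summed to 5736 and 5799 FPKM in wild-type larvae and to 3827 and 5145 FPKM in mutant larvae. Most of that sum was asp-1, at 3851 and 4141 FPKM and at 2598 and 3306 FPKM, and single markers went both ways: log2 fold changes were above 0 for 3 (elt-7, ges-1 and cpr-1) and below 0 for 4, with no overlap for cpr-1 above and for asp-1, act-5 and ifb-2 below. The 5 neuronal markers summed to 297 and 299 FPKM and to 380.4 and 351 FPKM, with all 5 fold changes above 0 and no overlap for 2. Of all tested genes, 28.1% lay above without overlap and 15.9% below, and 9233 of 15202 had fold changes above 0. Sums of muscle ranged from 1904 to 2193 and from 2164 to 2262 FPKM, and those of the pharynx from 1299 to 1635 and from 1625 to 1851 FPKM. The 6 hypodermal markers summed to between 130.1 and 144 FPKM in wild type and between 89.2 and 107 FPKM in the mutant, with 3 fold changes above 0 (elt-3, che-14 and dpy-7) and 3 below. Germ-line sums ran from 22.1 to 25.4 and from 15.5 to 19.4 FPKM. The largest part of the latter difference lay in glh-4, at 4.99 and 5.50 FPKM in wild-type larvae and 0.709 and 0.720 FPKM in mutant larvae. The low gene nos-2, below the minimum for testing, was also lower, at 1.13 and 0.911 FPKM against 0.149 FPKM in either mutant library. Of the others tested, glh-1 had a log2 fold change of -0.14 with overlap, and pgl-3 and deps-1 had fold changes just above 0. All markers measured for these tissues were above 0 in all 4 libraries except pgl-1 of the germ line. The markers of single tissues were described after their values were seen, and the part of tissue make-up in the values of the ER genes was not tested.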

How the data were processed

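Total RNA of whole L1 larvae was measured in 4 libraries, 2 per genotype, grouped by the sample titles. The submitters' processing notes name TopHat2, Cufflinks and build ce11. Tool versions, strandedness and the handling of multiply aligned reads are not stated in the sources used here. Each library has 1 deposited FPKM value from the authors per RefSeq accession. The file header names no unit; that the values are FPKM was taken from the tools and from the values. Of 52491 accessions, 47645 were matched without version to a RefSeq gene table of WBcel235, the assembly of ce11, and summed per gene. Overlaps between exons were computed from Ensembl's annotation of that assembly. Protein and promoter sequences were not used here.

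The 15202 genes whose mean reached 1 FPKM were tested on log2(FPKM + 1) using limma (version 3.58.1, R version 4.3.3), its variance prior following intensity, and p-values were Benjamini-Hochberg adjusted over all of them. Fold changes are on that scale, which understates changes of low genes. Overlap between genotypes was read from FPKM without further scaling, unless median-ratio scaling is named. The step was tested on simulated data, whose spread at low levels was capped after a version without the cap gave too many false calls. Read depth is not known from FPKM, so no counting intervals are given. Members, lists and tests were chosen with earlier results of these data known. List genes matched only through a noncoding accession (eif-2alpha) were left out after their values were seen. The rule named the 10 members and dve-1, up to 3 genes past the threshold in each direction from each list and, where none passed, the 2 of highest mean. All other genes were named with their values in view.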

Additional observations from a re-analysis of the deposited data

How the results depend on the processing

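Under 19 alternatives (scaling, pseudocount, filter, limma settings, a replicate block, values per accession, each library left out and, chosen after seeing the data, protein-coding genes above 0 in all 4 libraries and a second filter for each library left out), 0 of the 10 ER genes and 0 of the other ER genes passed limma. Of the fold changes, 8 of the 10 kept their sign under all 19. The exceptions lay near 0: enpl-1 was at 0.061 per accession and ranged from -0.12 to 0.097 with 1 library left out (0.030 without the second mutant one), and xbp-1 at -0.056 under median-ratio scaling and from -0.11 to 0.21 with 1 library left out (-0.011 without the first wild-type one). The median of the members ranged from -0.085 to 0.057. The 252 calls over all genes became 105 at a mean of at least 5 FPKM, 391 without the intensity trend, 52 among protein-coding genes above 0 in all 4 libraries and 0 to 767 with 1 library left out. That count turned on the filter, whose form was changed after counts had been seen: on the mean of the 3 kept libraries it was 719 without the second wild-type library and 0 without any other, and on the mean of all 4 it was 750 and 767 without the first and second wild-type library and 369 and 467 without the first and second mutant library. Genes equal in the 2 libraries of the remaining pair then have no variance, and a lone library is assumed to vary like the other genotype. With the replicate block, 0 genes passed (1166 at an unadjusted p under 0.05). Deviations of same-numbered libraries correlated at -0.056 over 15202 genes, so the numbers showed no pairing over all genes together. A pairing in part of the genes was not tested. The block is not read as a stricter test of the same effect. With 2 libraries per genotype, intervals of most members span differences of either sign, and a miss does not show equal levels.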
